A study of Mus musculus with 5 samples.

Results

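Melanoma cells hold on to each other, to vessels and to matrix through a small group of surface proteins, and 10 genes of this group were examined in CD45- cells sorted from B16-OVA tumors. They are the immunoglobulin-type adhesion molecules Mcam, Ncam1, Alcam and Icam1, the integrin subunits Itgb1, Itgb3, Itga4, Itga5 and Itga6, and Cd44, the receptor for the matrix sugar hyaluronan. The genes were picked by name from the 750 endogenous probes of a NanoString panel of cancer immunity genes. They were picked with results of the same comparison known, among them that Mcam, Ncam1 and Itgb3 had higher means in KO, so their differences between genotypes are given here as a description, and calls from the fit over the whole panel appear only as counts beside the share of all probes called. All 10 passed the filter on low counts, together with 391 other probes.

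There were 2 tumor samples from Prdm1fl/flFoxp3YFP-Cre mice (KO), in which Cre driven by Foxp3 removes Prdm1, the gene for Blimp1, from regulatory T (Treg) cells. They were set against 3 tumor samples from Foxp3YFP-Cre mice (WT), which carry the same Cre but an intact Prdm1. All mice were C57BL/6, received B16 melanoma cells expressing ovalbumin under the skin, were given NP-OVA in adjuvant on days 0 and 7, and had tumors of at most 1.5 cm3 when the cells were sorted. The implanted tumor is 1 cell line, the sort kept whatever host cells lack CD45, the labels give no age or sex, and p-values measure only the spread between these samples.

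Integrins are pairs of an alpha and a beta subunit that bind matrix proteins or other cells, and the beta subunit links them to the actin cytoskeleton. Itgb1 pairs with Itga4, Itga5 and Itga6, whereas Itgb3 pairs chiefly with the alpha V chain on cells outside the platelet lineage. Immunoglobulin-type adhesion molecules bind like partners or integrins on a neighboring cell, and in human melanoma MCAM, ALCAM and the beta 3 integrin are known as markers of invasive growth.

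Endogenous probes summed to 450207 and 461822 counts in the KO samples and to 369515 to 423472 counts in the WT samples. Raw counts were divided by a factor from 20 housekeeping probes, and the result is called a normalized count. Background was set for each sample at 2 SD over the average of its negative control probes and lay between 13.1 and 17.7 counts. Prdm1 had 6 and 4 raw counts in KO and 3, 10 and 5 in WT, all under background, and since Treg cells were sorted away these counts do not check the genotype. Ptprc, the gene of CD45, had at most 4 counts in any sample. Of the 7 melanocyte markers listed only S100b is on the panel, and it had 1724 and 1849 normalized counts in KO and 1979, 1987 and 1894 in WT. Because each sample is a bulk extract, fewer cells of a type and less RNA per cell cannot be told apart. Counts of different probes depend on how well each probe hybridizes, so levels of different genes are not ranked.

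Mcam, also known as CD146 and made by melanoma cells and endothelium, was read with a probe whose target begins at base 630 of transcript NM_023061.2. It had 2684 and 2607 normalized counts in KO 1 and KO 2, against 1727, 1916 and 1668 in WT 1, WT 2 and WT 3. Both KO samples lay above every WT sample, and the lower KO sample was 1.36 times the highest WT sample. The means were 2645 ± 54.3 in KO (SD, n = 2) and 1770.4 ± 130 in WT (SD, n = 3), a ratio of 1.49 and a log2 fold change of 0.58 (SE 0.11). Within WT the coefficient of variation of Mcam was 7.34%, against a median of 16.7% over all 401 tested probes. That median includes probes with counts near background. Among probes with counts of similar size, S100b had 2.65%, App 7.04%, Cd9 9.94%, Cdkn1a 13.1%, C4b 45.1% and Cd74 94.1%. Mcam lay within the range of these named probes, and no ranking by level was made.

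The Mcam promoter is shown because this gene had the smallest spread among the 3 genes whose means stood furthest apart. The window of 250 bases before to 50 bases after the gene start comes from RefSeq, at chr9:44134408-44134707 of GRCm38.p6, plus strand. Capitals mark the GC box (GGGCGG or its reverse complement) and the cyclic AMP response element (TGACGTCA).
Mcam promoter: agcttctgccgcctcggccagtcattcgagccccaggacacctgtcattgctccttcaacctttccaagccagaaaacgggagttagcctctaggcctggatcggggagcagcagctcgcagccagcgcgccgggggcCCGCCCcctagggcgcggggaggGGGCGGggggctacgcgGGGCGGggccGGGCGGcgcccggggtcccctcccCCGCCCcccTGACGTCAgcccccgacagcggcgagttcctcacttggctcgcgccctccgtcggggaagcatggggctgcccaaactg
The window held 5 GC boxes and 1 cyclic AMP response element, on either strand and without overlap. Of 32851 promoter windows of this length, 35.7% held a GC box and 1.79% a cyclic AMP response element. Promoters of 7 of the 10 genes were in the table, all 7 held a GC box, and only that of Mcam held the cyclic AMP response element. The motifs were chosen after the sequences were seen, and a match is a description of letters, not a site shown to be used.

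Ncam1, the neural cell adhesion molecule CD56, had 361 and 524 normalized counts in KO 1 and KO 2, against 296, 219 and 183 in WT 1, WT 2 and WT 3. The groups did not overlap, yet the KO samples differed from each other by more than KO 1 differed from WT 1. The means were 443 ± 115 in KO (SD, n = 2) and 232 ± 57.5 in WT (SD, n = 3), a ratio of 1.90 and a log2 fold change of 0.93 (SE 0.27). Among the 401 tested probes this log2 fold change ranked 3 from the top. It was 0.64 without KO 2 and 1.17 without KO 1.

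**Figure D1:**
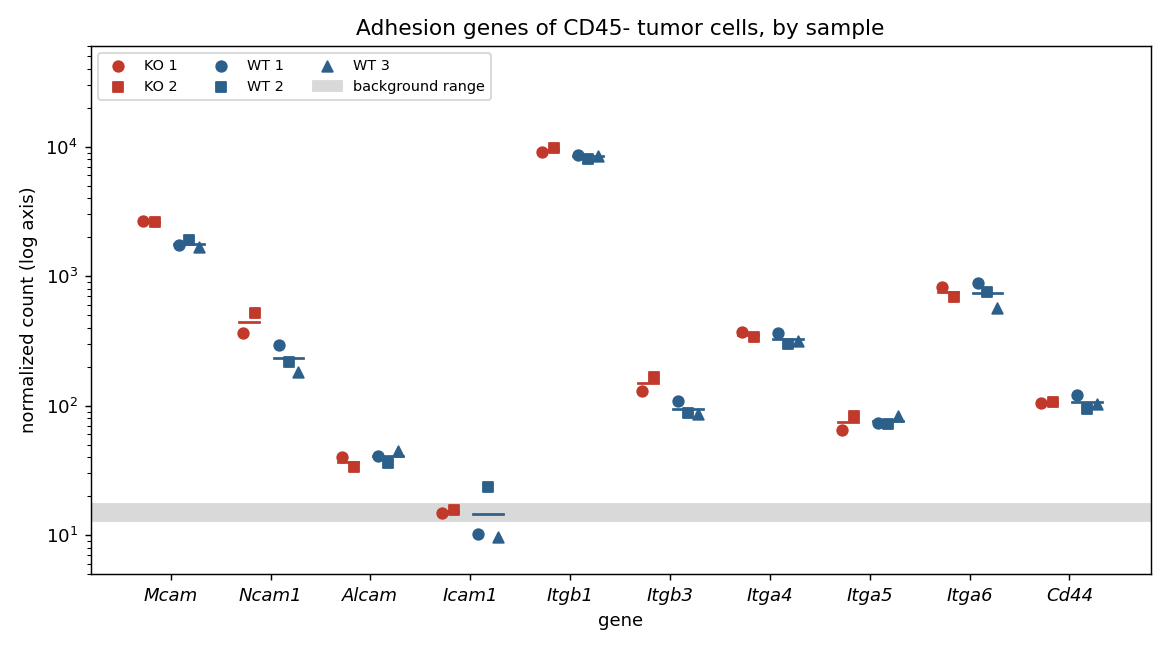
Normalized counts (log axis) of the 10 adhesion genes in the 2 KO samples (red) and the 3 WT samples (blue), with short lines at the group means and a gray band for the range of background. Mcam, Ncam1, Itgb3 and Itgb1 have both KO samples above all WT samples, and Icam1 lies at the band.

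Alcam, or CD166, which binds itself and CD6 on T cells, had 40.3 and 33.5 normalized counts in KO and 41.2, 36.3 and 44.9 in WT. The groups overlapped, and the log2 fold change was −0.14 (SE 0.22), or 0.0071 when samples were scaled by positive controls only. Raw counts of Alcam were 34 to 46, so the counts themselves allow only a coarse comparison.

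Icam1, the ligand of leukocyte integrins and a textbook target of NF-κB, lay at the edge of detection. Its raw counts were 17 and 16 in KO 1 and KO 2, against 10, 22 and 9 in WT 1, WT 2 and WT 3. Only KO 1 and WT 2 exceeded their own background, and these 2 samples carried the probe through the filter. The log2 fold change of 0.08 (SE 0.47) was −1.41 after background was subtracted and −0.18 on the deposited signal, where 3 of the 5 samples sit at the floor of 15. No direction can be read for Icam1 at these counts.

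The Icam1 promoter is printed because it held the one match to an NF-κB motif in this group. It lies at chr9:21015690-21015989 of GRCm38.p6, plus strand, from RefSeq, with capitals for the NF-κB motif (GGANNTTCC) and the letters of a TATA box (TATAAA).
Icam1 promoter: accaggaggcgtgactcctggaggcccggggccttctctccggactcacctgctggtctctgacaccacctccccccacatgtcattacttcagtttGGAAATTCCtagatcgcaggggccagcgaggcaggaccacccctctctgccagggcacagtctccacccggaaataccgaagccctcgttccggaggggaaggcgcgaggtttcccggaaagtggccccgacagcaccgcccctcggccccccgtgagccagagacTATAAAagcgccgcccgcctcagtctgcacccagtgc
Each motif was searched on both strands, the 2 did not overlap, and they were found in 4.26% and 13.6% of all windows. The NF-κB match began at −153 relative to the annotated gene start. The TATAAA match began at 13, after that annotated start. It is given as a match of letters, and its use was not tested. Of the 7 promoters searched, 1 held the NF-κB motif and 1 the letters TATAAA, both that of Icam1.

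Itgb1, the beta 1 chain shared by many matrix-binding integrins, gave counts far above background in every sample. It had 9146 and 9823 normalized counts in KO and 8688, 8073 and 8462 in WT. Both KO samples lay above all WT samples, but by a narrow margin, since the lower KO sample was 1.05 times the highest WT sample. The log2 fold change was 0.17 (SE 0.10), and it was 0.31 when samples were scaled by positive controls only. The coefficient of variation within WT was 3.70%.

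Itgb3, the beta 3 chain of the vitronectin receptor, had 130 and 168 normalized counts in KO 1 and KO 2, against 109, 88.5 and 86.7 in WT 1, WT 2 and WT 3. The groups did not overlap, with KO 1 at 1.19 times the highest WT sample. The means were 149 ± 26.4 in KO (SD, n = 2) and 94.8 ± 12.5 in WT (SD, n = 3), a ratio of 1.57 and a log2 fold change of 0.65 (SE 0.21). With 1 sample left out it lay between 0.46, without KO 2, and 0.82, without KO 1.

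Ncam1 and Itgb3 ordered the 5 samples in the same way, with KO 2 first, then KO 1, WT 1, WT 2 and WT 3. This order was found in 3 of 401 tested probes, or 0.748%, with Ncam1 and Itgb3 counted. For Mcam the order was KO 1, KO 2, WT 2, WT 1 and WT 3, found in 2 tested probes with Mcam counted. Each of the 10 genes had an order found in 0.499% to 1.5% of tested probes. Shares of this size are thus not particular to Mcam, Ncam1 and Itgb3. WT 1 was the highest WT sample for 6 of the 10 genes (Ncam1, Itgb1, Itgb3, Itga4, Itga6 and Cd44), whereas it was the highest WT sample for 84 of all tested probes, or 20.9%. Probes of a sample share its scaling factor, so these orders are not independent of each other.

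**Figure D2:**
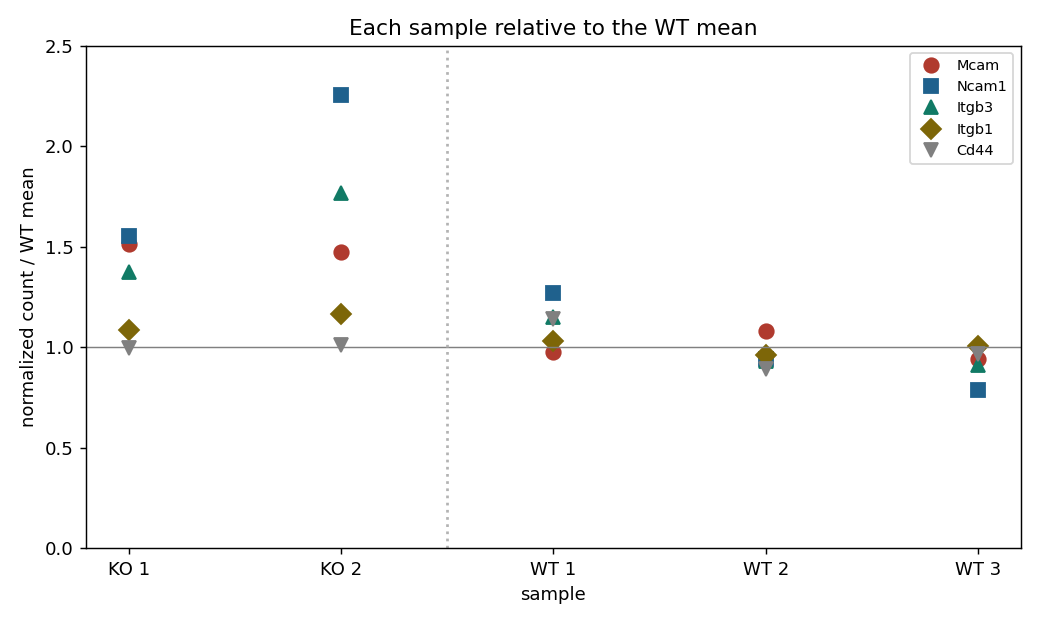
Normalized count of 5 genes in each sample divided by that gene's WT mean (linear axis from 0, line at the WT mean). Ncam1 and Itgb3 are highest in KO 2, Mcam has nearly the same value in both KO samples, and Cd44 stays near the WT mean in KO.

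The 3 alpha chains that pair with Itgb1 had overlapping groups. Itga4, whose integrin binds VCAM1 and fibronectin, had 368 and 340 normalized counts in KO and 367, 299 and 317 in WT, a log2 fold change of 0.11 (SE 0.15). Itga5, the chain of the classical fibronectin receptor, had 64.8 and 83.8 in KO and 74.1, 72.5 and 83.5 in WT, so that the KO samples were the lowest and the highest of all 5. Its log2 fold change of −0.05 (SE 0.21) was 0.13 without KO 1, −0.24 without KO 2 and 0.085 with positive controls only. Itga6, a chain of laminin receptors, had 827 and 693 in KO and 890, 755 and 569 in WT, a log2 fold change of 0.04 (SE 0.22).

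Cd44 was read with a probe whose target begins at base 112 of transcript NM_009851.2. It had 106 and 108 normalized counts in KO, between the WT values of 122, 94.9 and 103. The means were 107 ± 1.15 in KO (SD, n = 2) and 106 ± 13.7 in WT (SD, n = 3), and the log2 fold change was 0.0041 (SE 0.19). Leaving out WT 2 gave −0.072 and leaving out WT 1 gave 0.11, so no direction held for Cd44.

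**Figure D3:**
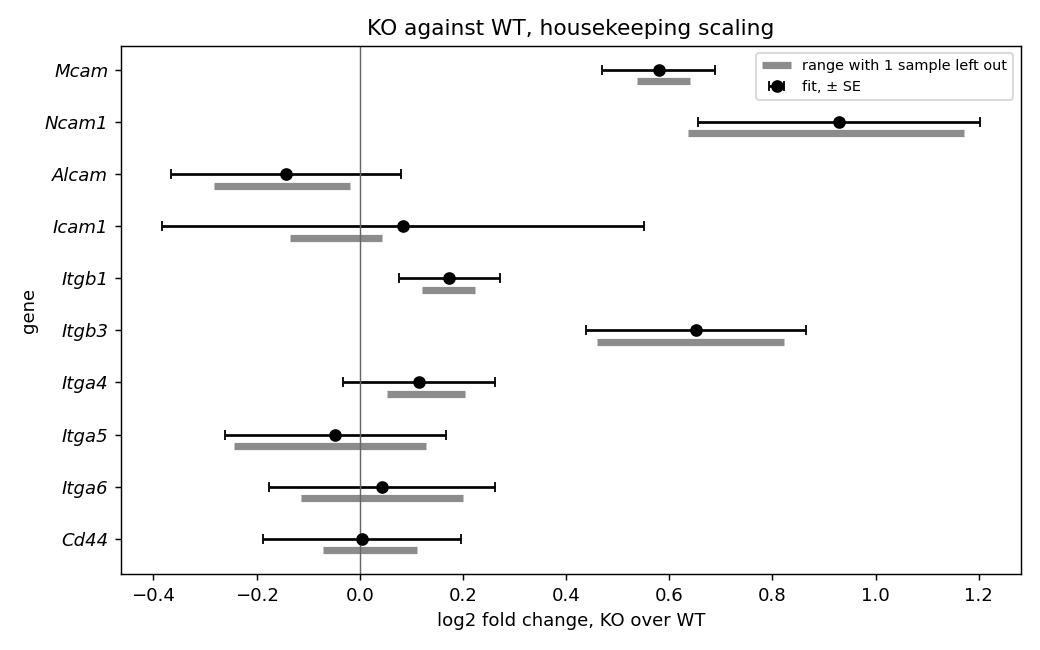
Log2 fold change of KO over WT for each gene from the fit over all tested probes (points, bars ± SE), with the range when 1 sample was left out (gray bars, all 5 omissions except 3 for Icam1). The gray bars of Mcam, Ncam1, Itgb3, Itgb1 and Itga4 stay to the right of 0 and that of Alcam to the left. Those of Itga5, Itga6, Cd44 and Icam1 cross it. Points lie at 0.58 for Mcam, 0.93 for Ncam1 and 0.65 for Itgb3.

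Ratios of 2 probes within a sample need no scaling between samples, and 9 such pairs of raw counts were compared. Mcam over Itgb1 was 0.293 and 0.265 in KO, against 0.199, 0.237 and 0.197 in WT. Mcam over Alcam was 66.7 and 77.7 in KO, against 41.9, 52.9 and 37.1 in WT. Itgb3 over Itgb1 was 0.0143 and 0.0171 in KO, against 0.0126, 0.0110 and 0.0102 in WT. In these 3 pairs every KO sample exceeded every WT sample.

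Cd44 over Itgb1 was lower in KO in every sample, at 0.0116 and 0.0109, against 0.0140, 0.0118 and 0.0121 in WT. The other 5 pairs overlapped, among them all 3 alpha chains over Itgb1. Over the 400 other tested probes, the ratio to Itgb1 was higher in both KO samples for 3.25% and lower in both for 33.2%. These shares used the comparison by which the genes were chosen and are given only as a background. No share was computed for ratios to Alcam, so nothing is read from the separation of Mcam over Alcam.

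Across the panel, edgeR's quasi-likelihood test called 0 of 401 probes at an adjusted p under 0.05, a share of 0%, and therefore none of the 10 genes. At an unadjusted p under 0.05 it held 25 probes, or 6.23% (2.74% higher and 3.49% lower in KO), and Mcam, Ncam1 and Itgb3 were 3 of these. Without WT 1, 3 of the 10 genes had an unadjusted p under 0.05, beside 50 of all tested probes. The counts were 2 beside 22 without WT 2 and 1 beside 16 without WT 3. DESeq2's Wald test called 3 of the same 401 probes at its adjusted threshold, Mcam, Lcp1 and Relb, and limma called 0. In edgeR none of these 3 passed the adjusted threshold. Every KO sample lay above every WT sample for 4 of the 10 genes and for 8.98% of tested probes, and below for 0 of the 10 and for 14.7% of tested probes. A mean higher in KO was found for 8 of the 10 genes and for 39.4% of tested probes. A fold change of at least 1.5 in favor of KO was found for 2 of the 10 genes, Ncam1 and Itgb3, and for 4.24% of tested probes. The median log2 fold change was 0.10 over the 10 genes and −0.07 over all tested probes. Since this comparison was in view when the genes were chosen, nothing is read from these counts.

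**Figure D4:**
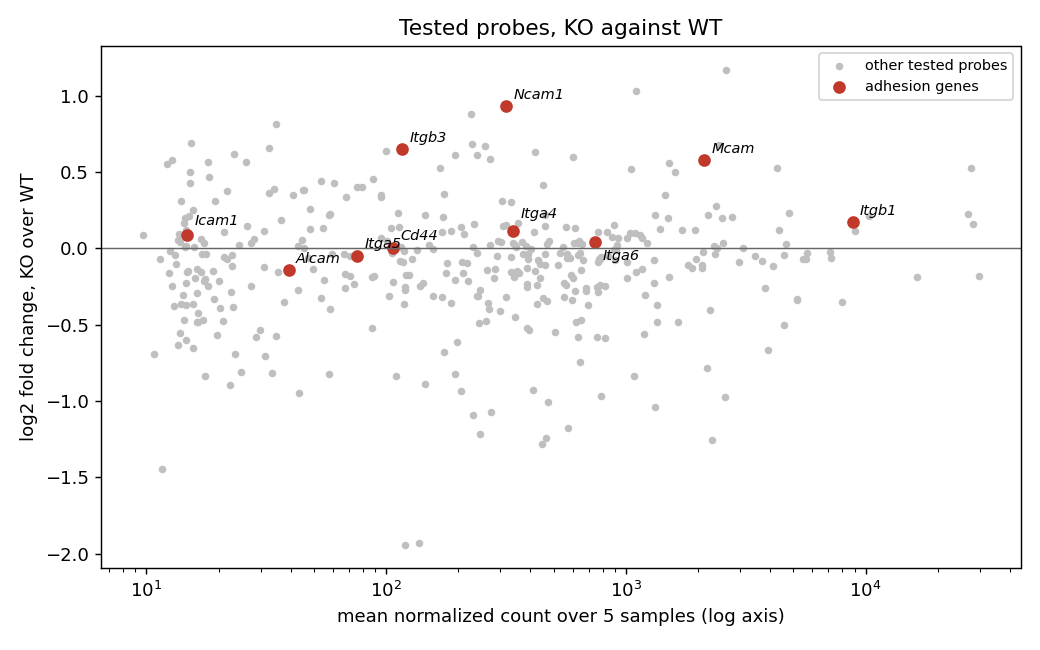
Log2 fold change of KO over WT against the mean normalized count over 5 samples (log axis) for the 401 tested probes, with the 10 adhesion genes in red. Ncam1, Itgb3 and Mcam lie near the upper edge of the cloud, and the other 7 lie close to 0.

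The probes closest to Mcam over the 5 samples, by root mean square difference of centered log2 values, were Map3k1 (0.069), a kinase of stress signaling, Cd3eap (0.11), a subunit linked to RNA polymerase I, and Lcp1 (0.14), an actin-bundling protein. Map3k1 had 358 and 319 normalized counts in KO and 236, 240 and 202 in WT. Itgb3 was itself the closest probe to Ncam1 (0.19), followed by Thy1 (0.25) and Lcp1 (0.27). Closest to Itgb3 were Gpi1 (0.092), a glycolytic enzyme, Lcp1 (0.11) and Thy1 (0.17). For Icam1 they were Fas (0.13), Il12rb1 (0.23) and Ly9 (0.27), at similarly low counts.

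The panel carries 9 other integrin subunits, of which 4 passed the filter, and 1 of these had a higher and 3 a lower mean in KO (median log2 fold change −0.11), with 0 past the adjusted threshold. Itgb4, the partner of Itga6 in epithelial laminin receptors, had 25.4 and 21.7 normalized counts in KO and 28.8, 42.7 and 31.0 in WT. Itgb2, the beta chain of leukocyte integrins, had 224 and 214 in KO and 217, 191 and 206 in WT. Itgal, a leukocyte alpha chain that pairs with Itgb2, had 14.0 and 22.7 in KO and 16.5, 24.5 and 22.5 in WT. Itgb4 alone of the 3 had groups that did not overlap.

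Of 30 other adhesion molecules and ligands listed 25 are on the panel and 16 passed the filter, 6 with a higher and 10 with a lower mean (median −0.08, 0 past the threshold). Cd97, an adhesion receptor that binds CD55, had 685 and 672 normalized counts in KO and 753, 800 and 870 in WT. Spp1, which encodes the integrin ligand osteopontin, had 106 and 43.4 in KO and 115, 129 and 156 in WT. Thbs1, which encodes thrombospondin-1, had 28.9 and 16.8 in KO and 37.1, 57.6 and 26.7 in WT. The groups overlapped for Thbs1 and not for Cd97 and Spp1. These named genes all had lower means in KO, but the list was mixed. Of its 16 tested genes, 4 had every KO sample above every WT sample and 5 had every KO sample below. Over all tested probes these shares were 8.98% and 14.7%. Vcam1, the cellular ligand of Itga4 integrins, exceeded background in 1 sample and was not tested.

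Of 16 tested genes of the NF-κB pathway and its targets, 13 were lower and 3 were higher on average in KO (median log2 fold change −0.15), and 0 passed the adjusted threshold. Relb, Nfkb2 and Traf2 had the smallest unadjusted p of this list. Relb had 131 and 143 normalized counts in KO and 255, 332 and 291 in WT. Nfkb2 had 320 and 301 in KO and 464, 483 and 404 in WT. Traf2 had 319 and 295 in KO and 409, 429 and 485 in WT. All 3 had groups that did not overlap, while Icam1 stood at background. Among 24 tested interferon-stimulated genes 23 were lower and 1 was higher on average in KO (median −0.82, 0 passing). Over all 401 tested probes 243 were lower. Both KO samples lay below every WT sample for 7 of the 24. The median coefficient of variation within WT was 50.6% for this list, against 16.7% over all tested probes. Cxcl11, Mx2 and Oas2 had its smallest unadjusted p, and WT 1 was their lowest WT sample. Oas2 had 274 and 206 normalized counts in KO and 298, 875 and 577 in WT. Of 10 genes listed for melanocytes 3 were on the panel and tested, Mcam, S100b and Ctsl, with 0 passing. S100b, the only one that is also a listed melanocyte marker, was lower in both KO samples than in every WT sample, as were 14.7% of tested probes. Mcam and Ctsl had higher means in KO. Mcam is one of the 10 adhesion genes, and Ctsl encodes a lysosomal protease that is not a melanocyte marker, with overlapping groups.

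Mcam is also made by endothelium and Ncam1 by several stromal and neural cells, so markers of cells that the gate could hold are given. Endothelial markers on the panel summed to 1239 and 1210 normalized counts in KO and to 1324, 1624 and 1389 in WT, with 2 or 3 of 10 above background in each sample. Eng alone gave most of this sum, with 907 and 954 in KO and 1012, 1209 and 968 in WT. Pecam1 and Cdh5, which define endothelium, had at most 5 and 8 raw counts and never exceeded background. The tested endothelial markers, Icam2, Eng and Vwf, had lower means in KO (median −0.41).

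Fibroblast markers summed to 1685 and 1590 in KO and to 1345, 1839 and 784 in WT, with 4 to 6 of 7 above background, and 3 of the 6 tested had a higher and 3 a lower mean (median −0.07). Col4a1, which encodes a chain of basement membrane collagen, had 239 and 200.2 normalized counts in KO and 334, 241 and 223 in WT. The fibrillar collagen genes Col1a1 and Col3a1 also had lower means in KO, with log2 fold changes of −0.58 (SE 0.87) and −0.95 (SE 0.97). Thy1, near in pattern to Ncam1 and Itgb3, had only 23 and 24 raw counts in KO and 19, 15 and 11 in WT. Fn1, which encodes fibronectin and gave most of this sum, had 1274 and 1294 in KO and 871, 1358 and 454 in WT. Of these 5 genes Thy1 alone had groups that did not overlap.

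Leukocyte markers summed to 676 and 663 in KO and to 545, 633 and 510 in WT, with 4 to 9 of 23 above background, and 5 of the 7 tested had a higher and 2 a lower mean (median 0.10). Cd68, a lysosomal protein of macrophages, had 243 and 246 in KO and 141, 210 and 128 in WT, without overlap. Cd53, a leukocyte tetraspanin, had 21.0 and 14.8 in KO and 16.5, 11.7 and 11.8 in WT, and Cd3d, a chain of the T cell receptor complex, had 13.1 and 11.8 in KO and 16.5, 22.4 and 9.63 in WT. Both overlapped, Cd53 with the higher and Cd3d with the lower mean in KO. The part of endothelium, fibroblasts and leukocytes in the values of Mcam, Ncam1 and Itgb3 was not tested.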

How the data were processed

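CD45- tumor cells were profiled with the nCounter Mouse PanCancer Immune Profiling panel, from 100 ng of RNA each. The raw counts deposited by the authors cover 784 probes (750 endogenous, 20 housekeeping, 8 negative, 6 positive), and were neither scaled nor background-subtracted. The deposited normalized signal (nSolver per the study's methods) equaled the raw count times 1 factor per sample, with a floor of 15, and served as an alternative. Columns were matched through the sample code in the labels. Counts were scaled by the geometric mean of 20 housekeeping probes (factors 1.14 and 1.01 in KO, 0.971, 0.938 and 0.935 in WT). Probes that exceeded background in 2 or more samples entered edgeR 4.0.16 (quasi-likelihood, genotype only) in R 4.3.3, with Benjamini-Hochberg adjustment. The fit was also run on counts simulated from its own model and dispersions. Such a run cannot show how the fit behaves on the real counts, and nothing is read from it. Alternatives used TMM, DESeq2 1.42.0, limma 3.58.1, the methods' t-test, other filters and scalings, and each sample left out. The 10 genes and all context and marker lists were chosen with earlier results of these data known. Named were all 10 genes, the 3 tested genes of smallest p per context list, and the 3 probes nearest in pattern to Mcam, Ncam1, Itgb3 and Icam1. Vcam1, the probes set beside Mcam for spread, and markers of endothelium, fibroblasts and leukocytes are named outside that rule. Their values had been seen. Of the 10 genes all 10 matched a RefSeq symbol by transcript.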

Additional observations from a re-analysis of the deposited data

How the results depend on the processing

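Log2 fold changes of Mcam, Ncam1, Itgb1, Itgb3 and Itga4 kept a higher mean in KO under all 16 alternatives. That of Alcam was above 0 only with positive controls (0.0071), and those of Icam1, Itga5, Itga6 and Cd44 changed sign under 3 to 5 alternatives each. The median of the 10 genes was 0.25 with positive controls only, where the median of all tested probes was 0.07 in place of −0.07, and 0.055 to 0.20 with 1 sample left out (0.055 without WT 3, 0.20 without WT 1). Probes at the adjusted threshold numbered 3 with DESeq2 and 0 under every other alternative. At an unadjusted p under 0.05 there were 39 probes without a filter, 16 with the replicate block and 10 to 50 with 1 sample left out (50 without WT 1, 16 without WT 3, 10 without KO 2). They split into 11 higher and 14 lower in KO, but 24 and 4 with positive controls only, 17 and 13 with DESeq2 size factors, 11 and 5 with the replicate block, 9 and 41 without WT 1, 15 and 7 without WT 2, 9 and 7 without WT 3, 10 and 8 without KO 1 and 6 and 4 without KO 2. Replicate numbers are shared between the groups, but the labels do not say that they pair samples, and deviations from group means correlated at 0.29 and 0.00025 for the 2 shared numbers. Of the 10 genes 3 had an unadjusted p under 0.05, beside 25 of all 401 tested probes. Of the same 401 probes, there was 1 beside 16 with the replicate block, 2 beside 27 with the methods' t-test and 4 beside 28 with positive controls only. Fewer than 401 probes were tested with a WT sample left out. The counts were then 3 beside 50 without WT 1, 2 beside 22 without WT 2 and 1 beside 16 without WT 3. The log2 difference of Mcam over Icam1 was 1.27 after background subtraction against 0.37, and Icam1 is then at or near the floor. Ratios of the other pairs moved by less than the spread between replicates. Causes were not tested, and with 1 KO sample left the other is assumed to vary like WT.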
